A study of Solanum tuberosum with 6 samples.

Results

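A set of 22 genes of the annotation of the potato cultivar Atlantic was expressed in leaves of KY140 and gave almost no reads in leaves of Atlantic itself. A gene entered the set when it reached at least 10 CPM (counts scaled to a library total of 1000000) in each of the 6 KY140 libraries and had at most 5 counts in total over the 6 Atlantic libraries. These 22 genes are among 9413 genes that reached 10 CPM in every KY140 library, among 90017 genes with a Soltu.Atl identifier and among 114281 genes measured in all. The genes were thus chosen by their levels in KY140 and Atlantic, and the difference between these cultivars is described here without a test. The libraries of KY130 took no part in the choice and are set beside it.

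Leaves came from plants of 3 cultivars grown for 18 days under 2500 lx for 16 h a day. The study's methods describe virus-free tissue culture seedlings on MS medium for Atlantic and KY140, and do not name KY130. Untreated plants of the groups Atlantic, KY130 and KY140 were kept at 25°C for 12 h, and those of CS-Atlantic, CS-KY130 and CS-KY140 (CS, cold stress) at −4°C for 12 h. All plants are labelled wild type, and the treatment field of the labels gives 12C where the titles and the study's methods give −4°C. Each group has 3 libraries. The methods speak of 3 biological replicates without saying whether the exposures were repeated, so the p-values may measure only the spread between these libraries. The study describes Atlantic as resistant and KY140 as sensitive to cold, and does not describe KY130. Library totals were 11047494 to 14971945 counts. The untreated KY140 libraries detected between 45305 and 65787 genes, with the fewest in library 1, and the biological coefficient of variation estimated by edgeR was 82.6% in KY140 and 81.0% in KY130.

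Cultivated potato is an autotetraploid, highly heterozygous plant that is propagated from tubers, so each chromosome is present in several copies that differ in sequence, in gene content and in which copy of a gene is transcribed. Potato cultivars can differ in whether a gene copy is present and in whether it is transcribed, and which of these applies to the genes here was not tested. The reads of all 3 cultivars were counted here against genes of Atlantic. A gene of this set is therefore a locus that the annotation places in the Atlantic genome and whose counts came almost only from libraries of other cultivars. By the form of these identifiers, the number after "Atl." is read here as the chromosome, and the digit before "G", which runs from 0 to 4, is called the copy digit. The sources used here do not spell out either, and the digit 0 need not stand for a single copy of a chromosome. Reads of nearly identical copies can be split or assigned to the wrong copy, and the sources used here do not say how they were assigned, so the value of each gene is uncertain to that extent. No file used here gives a name or function for these genes, and 0 of the 22 were found in the RefSeq gene table of potato. The tissue label could for the same reason not be checked against leaf markers. None of the 12 genes that the study's text names by identifier is in the set. The study reports all of them as changed by cold in Atlantic, so with the limit on Atlantic counts they could hardly have entered.

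The level of the 22 genes in KY140 was close to that of expressed genes in general. Their mean over the 6 KY140 libraries ran from 15.1 CPM in Soltu.Atl.01_0G002330 to 200 CPM in Soltu.Atl.03_3G022750, with a median of 35.0 CPM beside 38.7 CPM over the 9413 genes expressed in KY140. Together they took 0.0857 to 0.135% of the counts of a KY140 library. The sum was 1115 ± 246 CPM in KY140 (SD, n = 3) and 1049 ± 76.6 CPM in CS-KY140 (SD, n = 3). In untreated library 1, which detected the fewest genes, the sum was the highest at 1347 CPM, and 11 of the 22 genes had their highest untreated value there, beside 1 in library 2 and 10 in library 3. The part of library 1 in these levels was not tested. The median coefficient of variation over 3 libraries was 32.6% for the 22 genes and 27.7% for all genes expressed in KY140 when untreated, and 26.8% against 22.3% after cold.

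**Figure D1:**
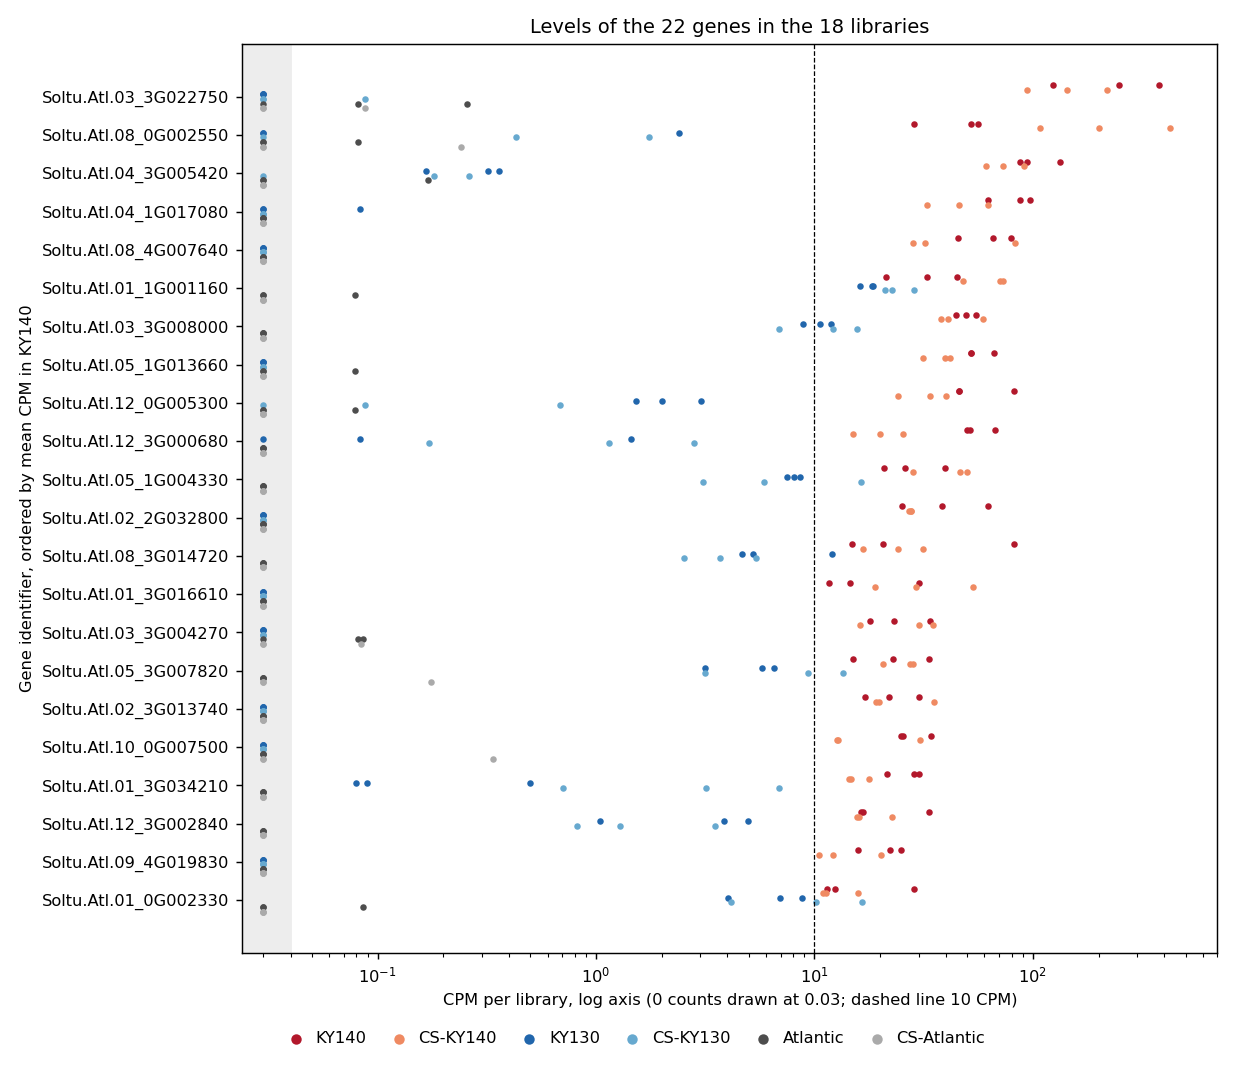
Level of each of the 22 genes in each of the 18 libraries, as CPM on a log axis, with 1 row of points per gene and colours for the 6 groups; libraries with 0 counts are drawn at 0.03 in the shaded band and the dashed line marks 10 CPM. All KY140 points lie right of the line because the rule asked for it, while the KY130 points run from 0 counts to 28.7 CPM.

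The most abundant gene, Soltu.Atl.03_3G022750, had 377, 123 and 247 CPM in the untreated KY140 libraries 1 to 3 and 143, 218 and 94.2 CPM in the treated ones. The untreated and treated libraries overlapped. Its 5 counts in Atlantic, the most that the rule allows, fell in 3 libraries, with 3 in 1 of them. Soltu.Atl.08_0G002550 had 28.6, 56.2 and 52.3 CPM untreated and 200, 108 and 423 CPM after cold, so that each treated library lay above each untreated one. Its 4 Atlantic counts came from 2 libraries.

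Soltu.Atl.04_3G005420 had 133, 87.2 and 93.9 CPM in KY140 and 90.9, 73.3 and 61.0 CPM in CS-KY140, with 2 counts in Atlantic, both in 1 library. The treated libraries reached into the range of the untreated ones. Soltu.Atl.04_1G017080 had 96.9, 62.5 and 87.3 CPM and, after cold, 62.6, 45.8 and 32.6 CPM. It had 0 counts in all 6 Atlantic libraries although its KY140 libraries held 425 to 1208 counts each. Soltu.Atl.08_4G007640, with 79.7, 45.5 and 65.6 CPM untreated and 82.5, 32.1 and 28.2 CPM treated, also had 0 counts in Atlantic. Both groups of KY140 overlapped for these genes too.

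As the rule required, Atlantic gave few counts. Over the 22 genes and the 6 Atlantic libraries there were 24 counts in all, beside 83153 counts in the 6 KY140 libraries. Of the 22 genes, 12 had no count in Atlantic, 4 had 1 count, 2 had 2, 1 had 3, 2 had 4 and 1 had 5. A count of 0 over 72379975 counts of the 6 Atlantic libraries allows a level of up to 0.0414 CPM, the level of 3 counts. Set against that limit, the mean of the 12 genes at 0 was at least 425-fold higher in KY140 for Soltu.Atl.09_4G019830 and at least 1559-fold higher for Soltu.Atl.04_1G017080, the ends of the range. The limit covers counting error only. The 24 counts were spread over the Atlantic libraries, with 7, 3 and 3 in the untreated and 5, 3 and 3 in the treated ones. The largest number for 1 gene in 1 library was 4, for Soltu.Atl.10_0G007500 in CS-Atlantic library 1.

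The same rule was applied to each pair of cultivars in both directions. Of the 9413 Soltu.Atl genes at or above 10 CPM in every KY140 library, 22 (0.234%) were silent in Atlantic, that is, had at most 5 counts over its 6 libraries. Of the 11949 genes at that level in every Atlantic library, 396 (3.31%) were silent in KY140 by the same limit. KY130 gave 12 of 10364 genes (0.116%) silent in Atlantic, while 542 of the 11949 Atlantic genes (4.54%) were silent in KY130. Between the other cultivars, 561 of the 9413 KY140 genes (5.96%) were silent in KY130 and 403 of the 10364 KY130 genes (3.89%) in KY140. The identifiers are those of Atlantic, and this and the cultivar cannot be told apart in these counts.

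**Figure D2:**
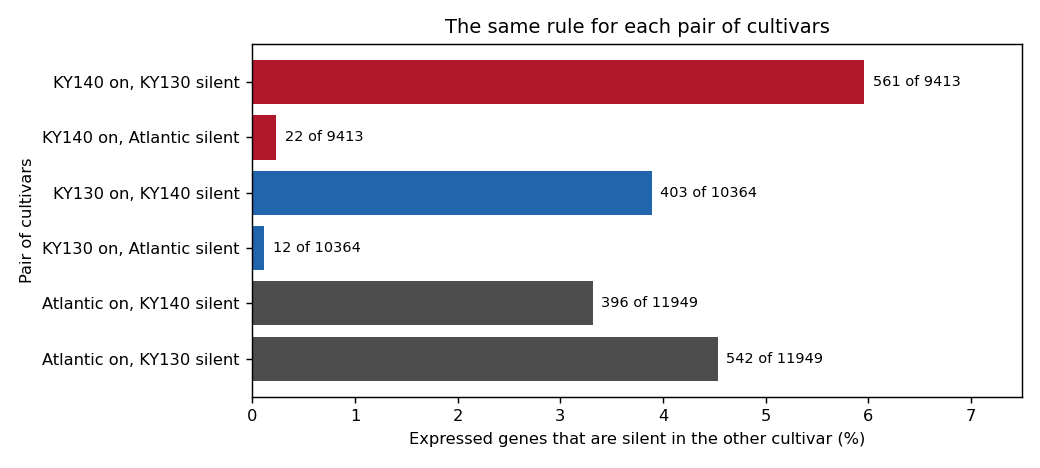
Share of expressed Soltu.Atl genes (at least 10 CPM in each of 6 libraries) that had at most 5 counts over the 6 libraries of another cultivar, in percent, 1 bar for each ordered pair of cultivars. The 2 bars for silence in Atlantic, 0.234% and 0.116%, are the shortest of the 6.

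In KY130, which the rule did not use, the genes fell into a silent and a graded part. By the same limits, 10 of the 22 genes (45.5%) were silent in KY130, 1 (4.55%) was expressed at 10 CPM or more in every library and 11 (50%) lay between. Among all 9413 genes expressed in KY140 the shares were 5.96% silent, 46.8% expressed and 47.2% between. Of the 10 silent genes, 8 had 0 counts in all 6 KY130 libraries and the other 2, Soltu.Atl.03_3G022750 and Soltu.Atl.04_1G017080, had 1 count each. A count of 0 over 69681239 KY130 counts allows up to 0.0431 CPM. In 5 genes all 12 libraries of Atlantic and KY130 had 0 counts, so that reads came from KY140 alone.

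These 5 genes were Soltu.Atl.08_4G007640, whose levels are given above, Soltu.Atl.02_2G032800, Soltu.Atl.01_3G016610, Soltu.Atl.02_3G013740 and Soltu.Atl.09_4G019830. Soltu.Atl.02_2G032800 had 25.3, 38.4 and 62.6 CPM in KY140 and a narrow 27.1, 27.7 and 27.6 CPM in CS-KY140. Soltu.Atl.01_3G016610 had 30.1, 14.5 and 11.7 CPM untreated and 29.1, 53.2 and 18.9 CPM treated. Soltu.Atl.02_3G013740 was at 17.01 to 30.2 CPM untreated and 19.1 to 35.4 CPM treated, and Soltu.Atl.09_4G019830 at 15.8 to 24.8 and 10.5 to 20.2 CPM. In each of the 5 genes the treated and untreated KY140 libraries overlapped. The other silent genes with 0 counts in KY130 were Soltu.Atl.05_1G013660, Soltu.Atl.03_3G004270 and Soltu.Atl.10_0G007500, which had 1, 3 and 4 counts in Atlantic. Over the 6 KY140 libraries they ran from 31.5 to 66.6 CPM, from 16.2 to 34.7 CPM and from 12.7 to 34.2 CPM.

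Of the 12 genes with more than 5 counts in KY130, 6 reached a mean of 5 CPM there and 6 did not. The highest was Soltu.Atl.01_1G001160, with 18.4, 16.2 and 18.5 CPM in KY130 and 21.0, 22.5 and 28.7 CPM in CS-KY130. Its KY140 libraries held 21.2, 32.8 and 44.9 CPM untreated and 71.0, 47.8 and 73.0 CPM treated, and its 6 Atlantic libraries 1 count. It was the only one of the 22 that also fulfilled the rule with KY130 in place of KY140.

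Soltu.Atl.03_3G008000 followed with 11.9, 10.6 and 8.85 CPM in KY130 and 15.6, 6.88 and 12.1 CPM in CS-KY130, beside 38.0 to 59.4 CPM over the KY140 libraries and 0 counts in Atlantic. The temperatures overlapped in KY130 and in KY140. Soltu.Atl.01_0G002330, the least abundant in KY140, came closest to equal levels: 4.01 to 8.81 CPM in KY130, 4.16 to 16.5 CPM in CS-KY130, 11.4 to 28.4 CPM in KY140 and 10.97 to 15.9 CPM in CS-KY140. Its KY130 mean was 56.0% of its KY140 mean, and that of Soltu.Atl.01_1G001160 was 43.1%. These were the only 2 genes with a KY130 library inside the range of the KY140 libraries, and in the other 20 genes each KY130 library lay below each KY140 library. The direction of that difference is tied to the choice of genes high in KY140. The same share was not taken over all genes expressed in KY140, so the 20 genes cannot be read as particular to the set.

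Soltu.Atl.05_1G004330, Soltu.Atl.05_3G007820 and Soltu.Atl.08_3G014720 had KY130 means of 23.4%, 28.1% and 17.7% of their KY140 means. Counts of these genes were present in all 6 KY130 libraries. In Soltu.Atl.08_3G014720 the KY140 mean rests in part on untreated library 1, with 82.4 CPM beside 20.6 and 14.8 CPM in libraries 2 and 3. Low and uneven counts marked the remaining genes. Soltu.Atl.08_0G002550, the gene with the next highest mean in KY140, had 30 counts in KY130 library 2, 20 and 5 in CS-KY130 libraries 1 and 3 and none in the other 3 libraries. Soltu.Atl.12_3G000680 had 0, 18 and 1 counts in KY130 and 13, 31 and 2 in CS-KY130. Soltu.Atl.04_3G005420 had 15 counts over the 6 KY130 libraries. Soltu.Atl.12_3G002840 had 1.04 to 4.94 CPM in KY130 and 0.81 to 3.51 CPM in CS-KY130, beside 15.7 to 33.5 CPM over the KY140 libraries, and its KY130 mean was 12.8% of its KY140 mean. The sum over all 22 genes was nevertheless steady in KY130, at 62.6 ± 5.62 CPM untreated and 74.9 ± 8.83 CPM treated (SD, n = 3 each), and Soltu.Atl.01_1G001160 with Soltu.Atl.03_3G008000 made up 38.9 to 54.7% of it.

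Whether cold changed these genes was tested within each cultivar. In KY140 none of the 22 genes passed the criteria by edgeR's quasi-likelihood test, a |log2FC| of at least 1 and an FDR under 0.05 over 47973 genes. Over all genes tested 0.886% were called higher and 0.158% lower, and among the 9413 genes expressed in KY140 1.33% and 0.319%, rates at which 22 genes would hold less than 1 call. At an unadjusted p under 0.05 there were 3 genes, 2 with a positive and 1 with a negative log2FC. The share of all genes tested at that limit was not taken, so the 3 genes are not read as more than usual. DESeq2 called 1 gene higher and 1 lower, where it called 3.76% and 0.98% of all genes tested and 3.91% and 1.65% of those expressed in KY140. The 1 higher call among 22 genes is near its shares. The 1 lower call is above its shares, but it rests on 1 gene only. The rule asked for 10 CPM at both temperatures, so genes that cold switched on or off in KY140 could not enter the set.

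The log2FC in KY140 was positive in 7 genes and negative in 15, with a median of −0.37 beside 0.07 over all genes tested and −0.11 over the genes expressed in KY140. In 19 genes its size was under 1. Without untreated KY140 library 1, the one with the fewest genes detected, 10 values were positive and 12 negative with a median of −0.12, and that of Soltu.Atl.08_3G014720 went from −0.63 to 0.57. Without any 1 of the other 5 libraries the median was −0.52 to −0.25. The largest value belonged to Soltu.Atl.08_0G002550, with 45.7 ± 14.95 CPM in KY140 and 244 ± 162 CPM in CS-KY140 (SD, n = 3 each), which gave 2.52 as its log2FC, with a standard error of 0.50 (edgeR adjusted p = 0.0549). This gene passed by DESeq2 (adjusted p = 5.16e-05), by edgeR without a filter on low counts (adjusted p = 2.47e-10) and by edgeR without CS-KY140 library 2 (log2FC 2.90, adjusted p = 0.0269). Over its 13 alternatives the adjusted p ran up to 0.224. At the other end, Soltu.Atl.12_3G000680 had 67.2, 51.6 and 50.01 CPM untreated and 15.1, 19.97 and 25.4 CPM treated. Its log2FC was −1.39 with a standard error of 0.35, and the adjusted p was 0.12 in edgeR but 0.0197 in DESeq2. It is named after its values were seen. Over the alternatives, edgeR and DESeq2 gave it an adjusted p from 0.0197 to 0.631.

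Soltu.Atl.01_1G001160 reached 1.06 in KY140 as log2FC, with a standard error of 0.36 (edgeR adjusted p = 0.267). The remaining 4 of the 6 most abundant genes had negative values. These were −0.62 (standard error 0.45) for Soltu.Atl.03_3G022750, −0.39 (0.30) for Soltu.Atl.04_3G005420, −0.71 (0.34) for Soltu.Atl.04_1G017080 and −0.33 (0.45) for Soltu.Atl.08_4G007640, with adjusted p values of 0.52 to 0.905 by edgeR. All 4 stayed negative without any 1 library, but their size rested on single libraries, with −0.96 to −0.17, −0.55 to −0.14, −0.97 to −0.50 and −0.98 to −0.06 in the same order. In 6 genes the temperatures were fully separated. In Soltu.Atl.08_0G002550 and Soltu.Atl.01_1G001160 (9.09% of 22) the treated libraries were all higher, and in Soltu.Atl.05_1G013660, Soltu.Atl.12_0G005300, Soltu.Atl.12_3G000680 and Soltu.Atl.01_3G034210 (18.2%) all lower. The same separation was found in 8.71% and 19% of the genes expressed in KY140, close to the shares of the 22.

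In KY130, 9 of the 22 genes had enough counts for the test, and none was called by edgeR or by DESeq2, nor had any an unadjusted p under 0.05 by either tool. Over the 48717 genes tested in KY130, 0.844% were called higher and 0.0842% lower, and among the 8129 of them expressed in KY140 1.14% and 0.111%. DESeq2 called 3.39% higher and 0.905% lower over all genes tested. The log2FC was positive in 6 of the 9 genes and negative in 3, with a median of 0.27 beside −0.07 over all genes tested. Without CS-KY130 library 1, 10 of the genes were tested, 5 positive and 5 negative, with a median of 0.11. Without any other 1 library the median was 0.20 to 0.43. For Soltu.Atl.01_1G001160 the estimate was 0.57 in log2 units, with a standard error of 0.33 (edgeR adjusted p = 0.641), with 17.7 ± 1.34 CPM untreated and 24.1 ± 4.06 CPM treated (SD, n = 3 each). Its 3 treated libraries lay above its 3 untreated ones in KY130, as they did in KY140. For Soltu.Atl.03_3G008000 it was 0.27, with a standard error of 0.50 (edgeR adjusted p = 0.933), and without CS-KY130 library 1 it was −0.01. Soltu.Atl.12_0G005300 had 17, 38 and 24 counts in KY130 and 1, 0 and 8 in CS-KY130, all lower, and its KY140 libraries were 45.8 to 81.8 CPM untreated and 24.1 to 40.0 CPM treated, also all lower. With 3 libraries at these counts its log2FC of −2.94 in KY130 had a standard error of 1.74. Over all genes tested in KY130, 8.57% separated fully upward and 12.9% downward.

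**Figure D3:**
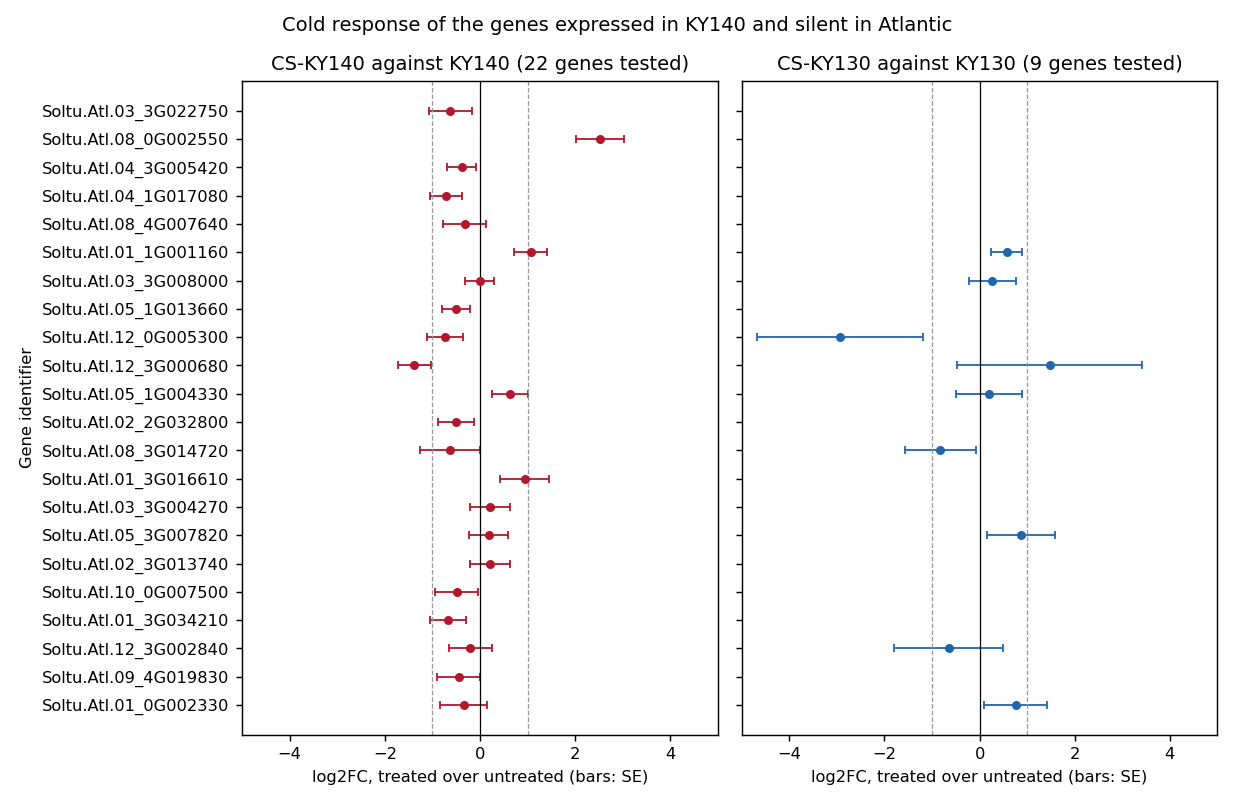
log2FC of treated over untreated libraries for the 22 genes in KY140 (left) and the 9 of them tested in KY130 (right), with bars for the standard error and dashed lines at a log2FC of 1 and −1. Soltu.Atl.08_0G002550 lies farthest to the right in KY140, at 2.52, and no gene of either panel passed the criteria by edgeR.

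A difference between the cold responses of KY130 and KY140 was tested as an interaction over 12 libraries. By edgeR 1 of 64732 genes had a larger log2FC in KY130 (0.00154%) and 0 (0%) a smaller one, and none of the 22 was called. Among the genes expressed in KY140 the share was 0.0106%. At an unadjusted p under 0.05, 1 of the 22 was higher and 1 lower by edgeR, and 2 and 1 by DESeq2. The shares of all genes at that unadjusted limit were not taken, and the shares called by FDR cannot stand in for them. DESeq2 called 0.21% of all genes higher and 0.314% lower, and 1 of the 22 higher, Soltu.Atl.01_3G034210. For the 8 genes without a count in KY130 the difference has no meaning. The values of that gene lay in opposite directions in the cultivars. It had 28.6, 21.6 and 30.1 CPM in KY140 and 14.7, 17.8 and 14.4 CPM in CS-KY140, all lower, but 1, 1 and 6 counts in KY130 and 8, 76 and 37 counts in CS-KY130, all higher. Its difference in log2FC between the cultivars was 4.69 with a standard error of 1.15, and the adjusted p was 0.484 in edgeR but 0.0109 in DESeq2. The gene is named after its values were seen, and the share of all genes with such opposite directions was not taken.

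The 22 identifiers were scattered. They lay on 9 of 12 chromosomes and on 17 of the 60 combinations of chromosome number and copy digit in the identifiers. Chromosomes 6, 7 and 11 had none, and chromosome 1 had the most with 4. By copy digit, 11 genes (50%) carried a 3, beside 27.1% of the genes expressed in KY140, and 1 (4.55%) carried a 2, beside 26.9%. Here and wherever neighbours are counted, the genes expressed in KY140 are the 9113 of 9413 whose identifiers hold a chromosome number. No gene of the set was next to another in the order of identifiers, and at least 197 listed identifiers lay between any 2 of them with the same chromosome number and copy digit.

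The genes beside them were often silent as well. The nearest listed identifier on each side gave 44 neighbours, of which 20 (45.5%) had at most 5 counts over the 6 Atlantic libraries, beside 10.7% of the neighbours of all genes expressed in KY140. In KY140 14 of the neighbours (31.8%) were silent against 13.1%, and in KY130 22 (50%) against 21.3%. The median mean level of the neighbours was 0.424 CPM in Atlantic and 0.759 CPM in KY140, beside 4.87 and 4.39 CPM around all genes expressed in KY140. These shares are descriptions and carry no test. Of the 20 neighbours silent in Atlantic, 10 were silent in KY140 too and 3 had at least 100 counts there.

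These 3 neighbours had counts in KY140 and few or none in Atlantic, like the gene beside them, without fulfilling the rule. The share of such neighbours around all genes expressed in KY140 was not taken, so they are not read as particular to the set. Soltu.Atl.04_3G005430, next to Soltu.Atl.04_3G005420, had a mean of 16.2 CPM and 1252 counts over the KY140 libraries, 4 in Atlantic and 23 in KY130. Soltu.Atl.03_3G004280, next to Soltu.Atl.03_3G004270, had 560 counts in KY140 and 0 in both other cultivars. Soltu.Atl.09_4G019810, beside Soltu.Atl.09_4G019830, had 318 counts in KY140 and likewise 0 in Atlantic and KY130. Neighbours with ordinary expression in Atlantic were also present. Soltu.Atl.10_0G007490, beside Soltu.Atl.10_0G007500, had means of 87.7 CPM in Atlantic, 55.8 CPM in KY140 and 258 CPM in KY130, and Soltu.Atl.04_3G005410 had 62.0 CPM in Atlantic against 1.52 CPM in KY140. In 6 genes both neighbours were silent in Atlantic, and in 8 neither was.

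Farther away the share of neighbours silent in Atlantic was smaller. At the second to the fourth listed identifier 22.7 to 31.8% were silent in Atlantic, and at the fifth to the tenth 15.9 to 27.3%, beside 12.2 to 14.6% around all genes expressed in KY140. In KY140 the share stayed between 20.5 and 34.1% over all 10 distances, beside 13.1 to 18.1%. The table lists only genes with at least 1 count in some library, so the next listed identifier is not always the next gene.

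**Figure D4:**
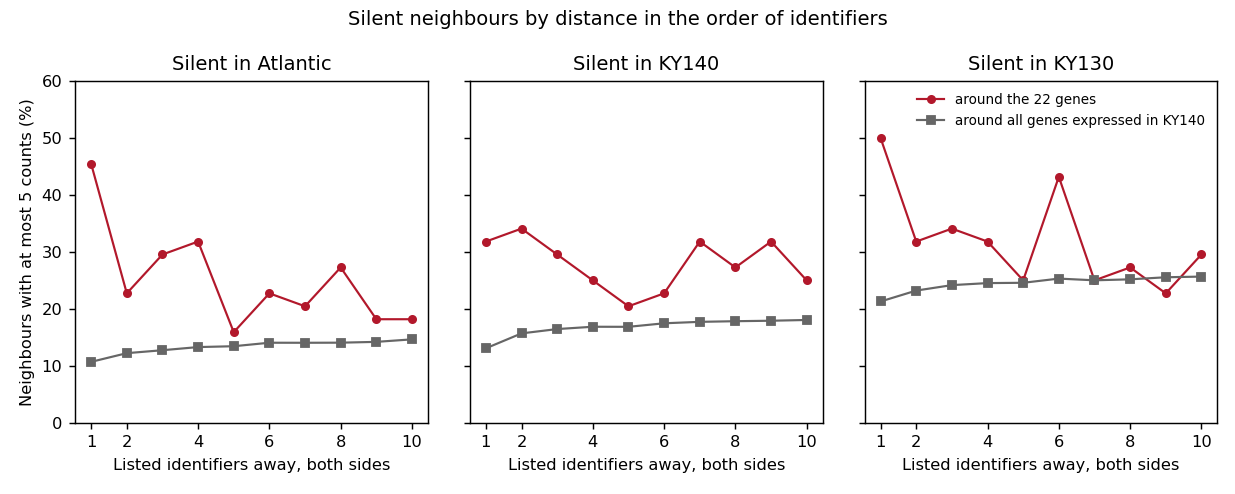
Share of neighbours with at most 5 counts over the 6 libraries of Atlantic (left), KY140 (middle) and KY130 (right), in percent, against the distance from the gene in listed identifiers, over both sides. Red circles are neighbours of the 22 genes (44 at each distance). Grey squares are those of all genes expressed in KY140 whose identifiers hold a chromosome number. In Atlantic the red line starts at 45.5% and the grey one at 10.7%.

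At the edges of the rule the values ran on without a break. The lowest KY140 library of a member was 10.5 CPM in Soltu.Atl.09_4G019830 and 10.97 CPM in Soltu.Atl.01_0G002330. Just outside, Soltu.Atl.03_1G011090 and Soltu.Atl.11_3G002460 had 9.61 and 9.53 CPM in their lowest KY140 library and 0 counts in Atlantic. On the side of Atlantic, Soltu.Atl.S074330 with 6 counts and Soltu.Atl.S019510 with 7 lay just outside, the latter with at least 215 CPM in every KY140 library.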

How the data were processed

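Poly(A) RNA of leaves was sequenced as strand-specific libraries by a service company. The authors deposited raw counts, whole numbers of reads per gene, with 3 numbered columns for each of 6 groups, matched to groups by the names in the labels (0 columns were left unused). Which aligner, counter and genome build were used, and how reads matching several copies were handled, is not given in the sources used here. Another table repeats the identifiers and was not used. CPM was a count divided by its library total, times 1000000. Silent means at most 5 counts over the 6 libraries of a cultivar. The cold tests ran in edgeR (version 4.0.16, with limma 3.58.1 and R 4.3.3): filterByExpr with a minimum count of 10, TMM scaling, quasi-likelihood test, Benjamini-Hochberg adjustment over all genes tested, on the 6 libraries of KY140 or KY130, or on both sets for the interaction. A standard error is the log2FC divided by the square root of F. The test was run on simulated counts with 200 changed genes. The share of them that it found is not given here, so 0 calls do not show that genes stayed unchanged. Alternatives were DESeq2 1.42.0, RLE and upper quartile factors, other filters, a joint fit of all 18 libraries, no fold threshold, the replicate number as a block, other limits of the rule and leaving out each library. Named genes were the 6 highest in KY140, the 2 highest in KY130, genes called in a test, the edges of the rule and any run of neighbours; others were named to account for all 22. The members and rules were chosen with earlier results of these data known.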

Additional observations from a re-analysis of the deposited data

Results flagged for a closer look

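Soltu.Atl.01_3G034210 was flagged because its libraries moved in opposite directions with cold in the 2 cultivars in which it had counts. They were all lower in KY140 and all higher in KY130. The share of all genes with such opposite directions was not taken, so this gene is not read as more than usual. The difference was tested as an interaction of 4.69 on the log2 scale (standard error 1.15). It did not pass by edgeR (adjusted p = 0.484) and passed by DESeq2 (adjusted p = 0.0109), with an adjusted p of 0.0109 to 0.891 over its 18 alternatives. The KY130 side rests on 8 counts untreated and 121 treated over 3 libraries each.

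Outside the Soltu.Atl identifiers, 21 of the 223 genes that carry only a number and reached 10 CPM in every KY140 library (9.42%) were silent in Atlantic by the same limit, beside 22 of 9413 Soltu.Atl genes (0.234%). These genes take no part in the comparisons above, and the 2 shares were not compared by a test.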

How the results depend on the processing

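The number of genes in the set was 22 with the stated limits, 50 with 5 CPM and 11 with 20 CPM as the limit in KY140, and 12 with 0 counts allowed in Atlantic; TMM scaling gave 24 and up to 10 Atlantic counts gave 26. The 12 settings without 1 library gave 22 to 25 genes. Leaving out a library can only loosen the rule, so all 22 genes were bound to be kept. In KY130, 2 genes were expressed in place of 1 at 5 CPM. With silence at 0 counts, an alternative chosen after seeing the data, 25% of the neighbours were silent in Atlantic, beside 7.11% around all genes expressed in KY140. In the cold test of KY140, the 0 genes called higher became 1 with DESeq2 and with no filter, and 0 to 1 without 1 library (Soltu.Atl.08_0G002550, without CS-KY140 library 2); the 0 genes called lower became 1 with DESeq2 (Soltu.Atl.12_3G000680). In the interaction, 1 gene was called higher with DESeq2 and with no filter (Soltu.Atl.01_3G034210, 4.69 with no filter) and 1 lower with no filter (Soltu.Atl.08_0G002550). The log2FC of Soltu.Atl.03_3G008000 in KY130 went from 0.27 to −0.0142 without CS-KY130 library 1, and to between −0.0142 and 0.54 without any 1 library. The cause of these moves was not tested, apart from limits that by construction admit more or fewer genes. With the replicate block, 0 members were called in KY140, KY130 or the interaction, as without it; same-numbered libraries of the 2 temperatures deviated together with r of 0.11, 0.09 and 0.01 in KY140 and −0.06, 0.04 and 0.19 in KY130, so the numbers were not taken as pairs. The other alternatives changed no call of a member. Over all genes, edgeR called 425 higher and 76 lower in KY140, DESeq2 1803 and 470, the unfiltered fit 1912 and 427, the joint fit 1337 and 200 and the block 270 and 47, with 94 to 590 and 13 to 97 without 1 library. In KY130 these were 411 and 41, 1652 and 441, 1406 and 289, 591 and 125, and 349 and 29, with 124 to 351 and 10 to 54 without 1 library. In the interaction they were 1 and 0 by edgeR, 136 and 203 by DESeq2 and 202 and 264 without a filter. The unfiltered fits tested 85374 genes in KY140, 88530 in KY130 and 103843 in the interaction. In KY130 9 genes passed the filter on low counts. Soltu.Atl.01_3G034210 did not, and had a log2FC of 4.08 in the joint fit (edgeR adjusted p = 0.0513) and 4.09 without a filter (adjusted p = 0.462).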
